A study of Mus musculus with 8 samples.

Results

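The genes described here are 10 identity genes of retinal ganglion cells (RGCs), the neurons whose axons form the optic nerve. They are the transcription factor genes Pou4f1, Pou4f2, Pou4f3, Isl1, Isl2 and Atoh7, the RNA-binding protein gene Rbpms, and Sncg, Slc17a6 and Nefl, which encode γ-synuclein, the glutamate transporter VGLUT2 and the light neurofilament chain. They were chosen by name, as genes that define this cell type, out of 21887 protein-coding genes, with earlier results of these data known. Each gene was taken with 20 kb on either side, and 59 of the 189914 regions that held a peak in any sample lay in these windows.

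The study asked what overexpression of Ezh2, the enzyme of Polycomb repressive complex 2, does to chromatin in injured RGCs. Accessibility was measured by ATAC-seq, in which a transposase cuts open chromatin, so that a peak marks DNA that was accessible in the sorted cells. Adult C57BL/6J mice received AAV2 in the vitreous body, carrying GFP in the control group and Ezh2 or Ezh2-Y726D in the others. The optic nerve of every group was crushed after 2 weeks. Cells were sorted 3 days after the crush at 50000 per library. There were 3 GFP, 3 Ezh2 and 2 Ezh2-Y726D samples, and Ezh2-Y726D is a mutant without methyltransferase activity. All groups therefore carry a virus and an injury, and no uninjured or uninfected cells are part of the comparison. The promoter that drives the transgene is not given in the sources used here, and the sort took CD90.2+ live cells, a surface protein (Thy1) that mouse T cells carry too. The labels do not say which samples came from separate animals, so p-values measure only the spread between these samples.

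As background, Atoh7 is a proneural factor that retinal progenitors need to become RGCs. Pou4f2 and Isl1 act after it and switch on much of the RGC program, Pou4f1 and Pou4f3 are the related POU-domain factors of maturing RGCs, and Isl2 marks a subset of RGCs. Rbpms, Sncg, Slc17a6 and Nefl are commonly used to recognize mature RGCs. Polycomb repressive complex 2 places the repressive mark H3K27me3, and developmental transcription factor genes with CpG-rich promoters are among its best-known targets.

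The promoters of the transcription factor genes are shown because the differences described below turn on the regions at the starts of Pou4f1 and Isl2, with Isl1, Pou4f2 and Atoh7 for comparison. They are RefSeq sequences of GRCm38.p6, written 5′ to 3′ on the strand of the gene, from 250 bases before to 50 bases after the start, with each CpG in capitals. They lie at chr14:104467950-104468249 on the minus strand for Pou4f1, chr8:78436598-78436897 on the minus strand for Pou4f2, chr13:116309639-116309938 on the minus strand for Isl1, chr9:55540899-55541198 on the plus strand for Isl2 and chr10:63099535-63099834 on the plus strand for Atoh7.
Pou4f1: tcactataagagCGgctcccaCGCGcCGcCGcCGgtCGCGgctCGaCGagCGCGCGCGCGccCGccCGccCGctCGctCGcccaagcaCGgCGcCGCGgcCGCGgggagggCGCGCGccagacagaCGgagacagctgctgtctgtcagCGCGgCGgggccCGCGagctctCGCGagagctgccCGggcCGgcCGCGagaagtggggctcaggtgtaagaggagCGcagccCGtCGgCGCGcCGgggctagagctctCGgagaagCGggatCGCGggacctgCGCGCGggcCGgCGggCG
Pou4f2: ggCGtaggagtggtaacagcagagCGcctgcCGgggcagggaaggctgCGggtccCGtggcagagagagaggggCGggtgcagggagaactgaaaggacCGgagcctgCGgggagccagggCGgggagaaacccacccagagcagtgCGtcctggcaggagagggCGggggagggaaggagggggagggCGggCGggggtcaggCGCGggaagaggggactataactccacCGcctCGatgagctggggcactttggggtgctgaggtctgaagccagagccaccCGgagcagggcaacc
Isl1: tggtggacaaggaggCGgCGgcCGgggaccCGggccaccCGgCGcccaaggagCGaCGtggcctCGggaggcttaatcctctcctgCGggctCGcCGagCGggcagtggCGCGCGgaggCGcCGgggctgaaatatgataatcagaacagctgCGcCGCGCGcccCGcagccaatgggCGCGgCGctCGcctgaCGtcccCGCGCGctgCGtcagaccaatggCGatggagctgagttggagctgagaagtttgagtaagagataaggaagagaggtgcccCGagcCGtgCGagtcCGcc
Isl2: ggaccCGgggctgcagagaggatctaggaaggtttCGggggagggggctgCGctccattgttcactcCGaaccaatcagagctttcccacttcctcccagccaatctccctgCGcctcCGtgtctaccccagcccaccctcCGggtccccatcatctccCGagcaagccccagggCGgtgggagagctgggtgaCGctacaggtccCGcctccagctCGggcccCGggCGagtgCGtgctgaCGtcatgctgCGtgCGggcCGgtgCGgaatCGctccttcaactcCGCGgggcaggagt
Atoh7: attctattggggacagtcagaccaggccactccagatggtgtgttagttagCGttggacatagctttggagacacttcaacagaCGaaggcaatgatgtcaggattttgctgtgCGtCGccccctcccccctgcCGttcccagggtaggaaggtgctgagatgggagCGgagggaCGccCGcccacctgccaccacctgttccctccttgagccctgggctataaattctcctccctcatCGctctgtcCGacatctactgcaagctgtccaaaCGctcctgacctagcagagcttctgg

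The Pou4f1 promoter held 57 CpG dinucleotides in 300 bases and a GC content of 78.3%, and 99.8% of the 32851 mouse promoters in the table held fewer. Isl1 held 37 CpG (94.4% of promoters held fewer), Isl2 held 23 (78.5%), Pou4f2 held 18 (70.3%) and Atoh7 held 11 (58.6%). The median over all promoters was 7 CpG and 52.7% GC. Sncg held 9 CpG, and the 2 annotated starts of Slc17a6 held 8 and 3, close to or below that median. The motif CANNTG, the E-box core bound by proneural factors such as Atoh7, was searched on both strands. It matched 3 times in the Atoh7 promoter, 2 times in that of Pou4f1, once in that of Isl1 and in neither Pou4f2 nor Isl2, while 72.3% of all promoters held at least 1 match. The motif CTAATG was in no member promoter, with 7.36% of all promoters holding it, and ATTAAT was only in the second promoter of Slc17a6, with 4.75% of all promoters holding it. A match is a description of these letters and not a measured binding site. In all, 7 of the 10 genes were matched to a promoter. Pou4f3, Rbpms and Nefl were not, and for these genes positions are given from either end of the gene.

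Each library has its own list of peaks, with 112939 to 133674 peaks in the GFP lists, 126271 to 135895 in the Ezh2 lists and 124666 and 128728 in the Ezh2-Y726D lists. Sequencing depth is unknown. A relative index of it, the background pileup that the steps between common folds give, was 2.69 to 3.74 reads in the GFP lists, 3.09 to 3.59 in the Ezh2 lists and 2.39 and 3.12 in Ezh2-Y726D replicates 1 and 2. As a check of the transgene, 13 regions lay in the Ezh2 gene itself, and 3 of them had a peak in each of the 3 Ezh2 lists, with folds of 3.25 to 7.15, but in none of the GFP lists. None of the 3 had a peak in the Ezh2-Y726D lists either, although that transgene differs from Ezh2 by a single amino acid. Another region of the gene (chr6:47530251-47530912) had folds of 4.68 to 6.01 in Ezh2, 4.23 and 6.79 in Ezh2-Y726D, 3.26 and 3.05 in GFP replicates 2 and 3 and no peak in GFP replicate 1. The check thus marked the Ezh2 lists and gave mixed values for those labelled Ezh2-Y726D, which are called by their labels below, and Ezh2 against GFP is the comparison that does not use them. The 2 Ezh2-Y726D lists stood apart at immune genes. Of 10 T-cell genes, 8 to 10 had a peak at the gene start in each GFP and Ezh2 list and 1 in each Ezh2-Y726D list (Cd4), and Cd3e, Cd3g, Cd2, Cd8a, Cd8b1, Zap70 and Lat had one in all 6 GFP and Ezh2 lists and in neither Ezh2-Y726D list. The peaks in these windows summed to 53 to 70, 78 to 81 and 40 to 44 in the GFP, Ezh2 and Ezh2-Y726D lists. Of 10 microglial genes, 4 to 7 had a start peak in the GFP and Ezh2 lists and 2 in each Ezh2-Y726D list (P2ry12 and C1qc). Cx3cr1 and C1qb had one in all 6 GFP and Ezh2 lists and in neither Ezh2-Y726D list. P2ry12 went another way, with a start peak in every GFP and Ezh2-Y726D list and in no Ezh2 list. Aif1 and Fcrls had none in any list. Summed peaks at the microglial genes were 55 to 68, 72 to 78 and 44 to 48. These values move with each comparison that uses Ezh2-Y726D. The summed peaks of both gene sets were also higher in every Ezh2 list than in any GFP list, so they move with Ezh2 against GFP too. Their part in the results below was not tested. In bulk samples, fewer cells of a type and less open chromatin per cell cannot be told apart.

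At the starts, the label was checked against these markers. Of the 10 identity genes, 9 had a peak within 1 kb of the start (of either end where no start is given) in each GFP list, 9, 9 and 10 in the Ezh2 lists and 9 and 8 in the Ezh2-Y726D lists, and 8 had one in all 8 lists. Over all protein-coding genes, 66.7% to 69.4% had a start peak in a list and 64.1% had one in all 8. The exceptions were Isl2 and Sncg. Sncg, a marker of RGCs in adult retina, had a peak at its start (chr14:34374695-34374919) only in Ezh2 replicate 3 and Ezh2-Y726D replicate 1. Marker genes of other retinal cell types were also open at their starts, with 8 to 10 of 10 for rods, 9 to 10 for bipolar cells, 9 to 10 for amacrine cells and 9 for Müller glia in every list. Presence of a start peak therefore did not separate RGC markers from those of the other retinal cells in these lists.

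**Figure D1:**
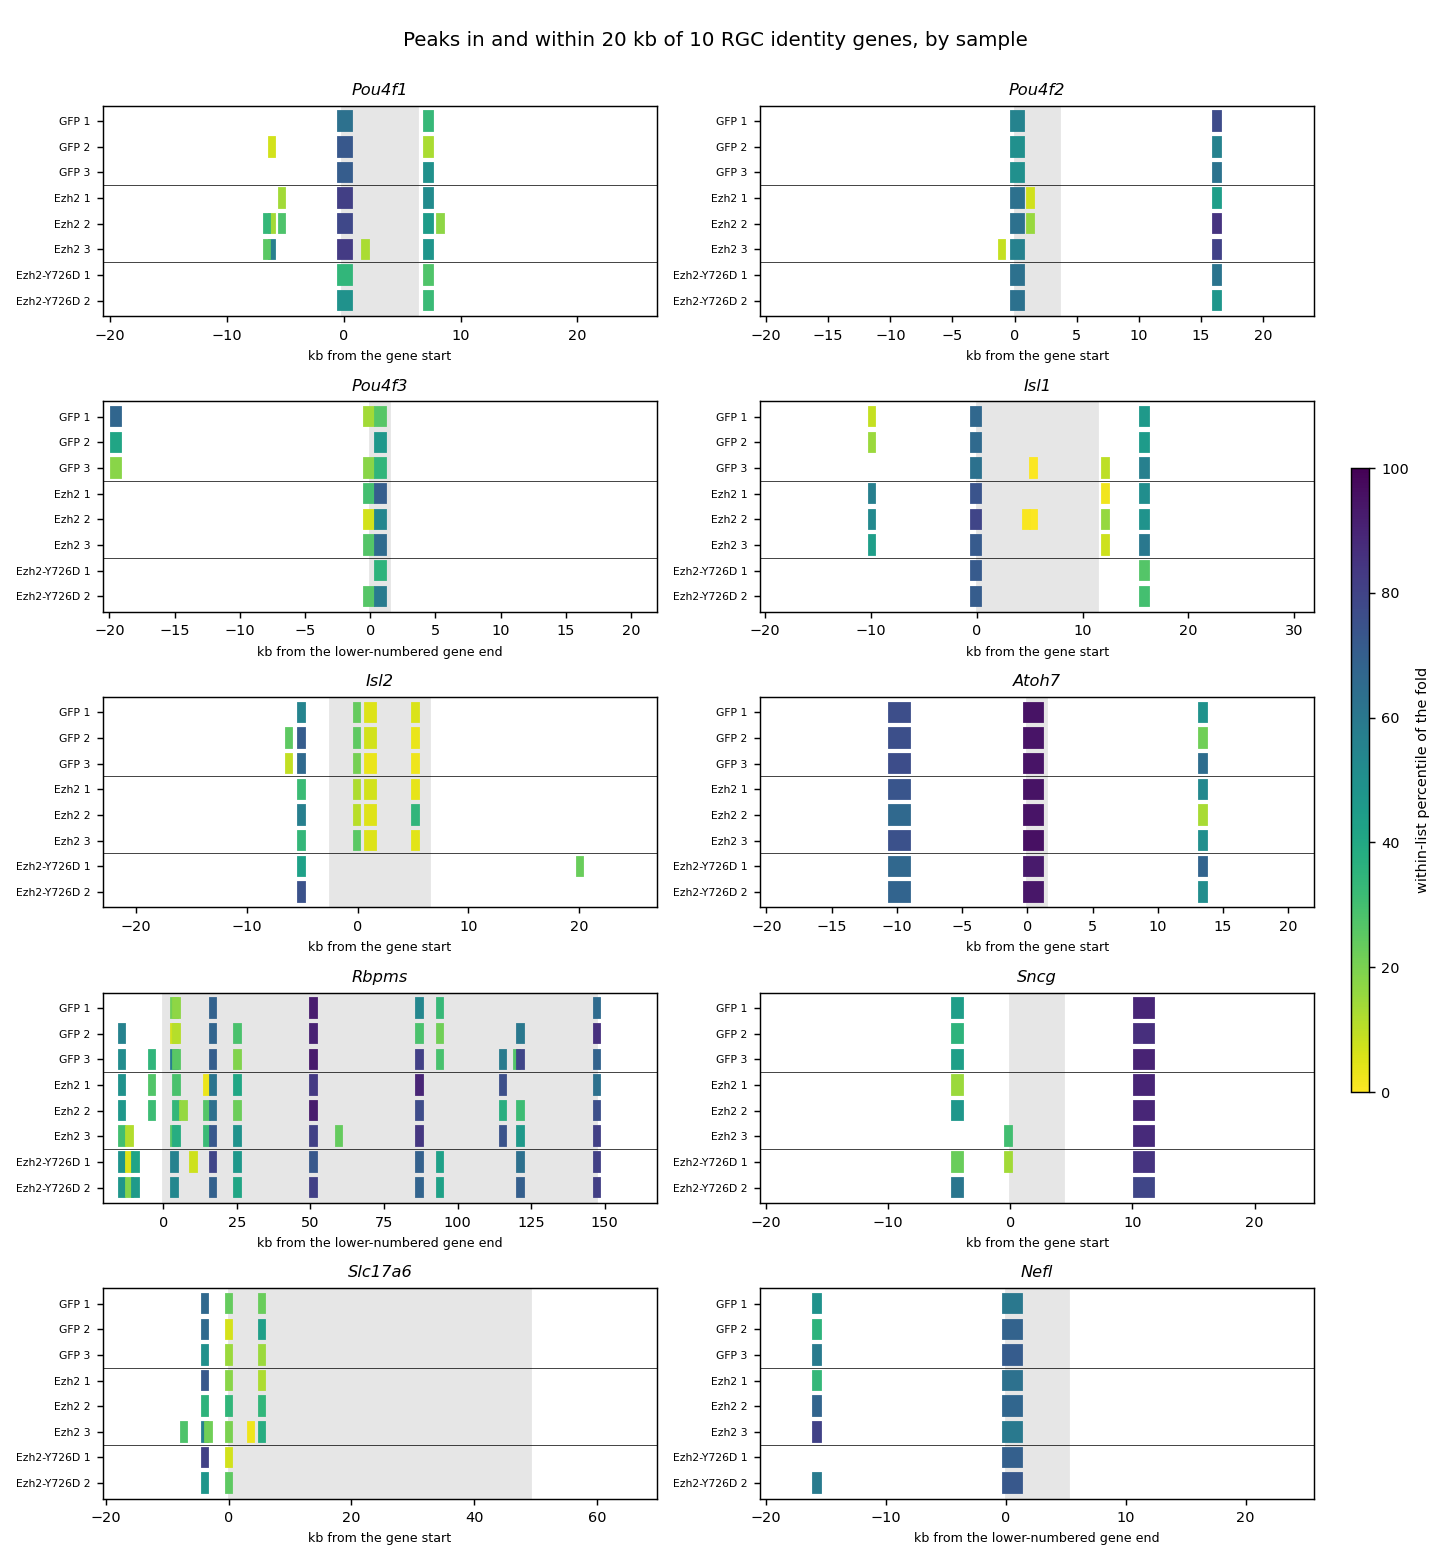
Peaks in the windows of the 10 RGC identity genes, with 1 row of marks per sample (GFP, Ezh2, Ezh2-Y726D) and the horizontal axis in kb from the gene start (from the lower gene end for Pou4f3, Rbpms and Nefl). Grey marks the gene, colour gives the percentile by fold within the list, and narrow peaks are drawn at a minimum width so that they can be seen. The marks at the Isl2 start are present in the 6 GFP and Ezh2 rows and missing from both Ezh2-Y726D rows.

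The 59 regions were mostly shared by many lists or seen in few. A peak was present in all 8 lists in 19 regions (32.2%, against 36.6% of all regions) and in 1 list only in 12 (20.3%, against 17.2%). At a gene start or end lay 14 regions, of which 8 were in all 8 lists, 20 lay inside the genes (3 in all 8) and 25 outside (8 in all 8). The median width was 527 bp, beside 559 bp for all regions. Peak density was below the median of all protein-coding genes at most members. Per 10 kb of window, the mean over the 8 lists ran from 0.378 peaks at Slc17a6 to 0.783 at Atoh7, where that median was 0.697. Only Atoh7 and Isl2 (0.765) lay above it. Among all genes, the members stood between percentiles of 28.5 (Slc17a6) and 56.0 (Atoh7).

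The height of a peak is given as the authors' fold over local background and, for comparison between lists, as its percentile by fold among all peaks of the same list. By this measure the most open region of the set was the start of Atoh7. At chr10:63099562-63100981 the percentiles were 95.2, 94.9 and 94.7 in GFP, 95.2, 94.9 and 96.0 in Ezh2, with 93.0 and 94.1 in Ezh2-Y726D, with folds between 10.5 and 11.4. The summits lay 448 to 560 bp inside the gene. Its groups differed by little, and no comparison was called by limma after Benjamini-Hochberg adjustment (adjusted p = 0.956 for Ezh2 and 0.580 for Ezh2-Y726D against GFP, and 0.482 between Ezh2 and Ezh2-Y726D).

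The other starts were lower and more spread out. Averaged within groups, the percentile of the Isl1 start was 65.0 ± 2.04, 75.0 ± 4.14 and 71.3 ± 0.522 in GFP, Ezh2 and Ezh2-Y726D (SD, n = 3, 3 and 2). That of the Pou4f2 start was 51.9 ± 3.01, 60.8 ± 3.96 and 63.0 ± 0.244. For Nefl the region at the lower gene end stood at 66.6 ± 5.96, 63.3 ± 3.84 and 71.2 ± 2.29. The upper end of Rbpms stood at 73.4 ± 11.2, 73.4 ± 9.19 and 81.3 ± 0.120. In the GFP lists the Rbpms end (65.4 to 86.2), the Nefl end (59.9 to 71.3) and the Isl1 start (62.7 to 66.5) overlapped, and the Pou4f2 start (50.0 to 55.4) lay below them. None of these 4 regions was called in any comparison. The start of Slc17a6 was low, at 15.0 ± 8.54, 24.0 ± 8.77 and 15.8 ± 12.6, although the gene is a standard RGC marker. Its most open region was instead 3.9 kb upstream (chr7:51617603-51618314), in the annotated gene Gm33136, with percentiles from 35.3 to 80.7 and no separation of the groups. The same held for Sncg, whose most open region lay 10.9 kb downstream of the start (chr14:34362933-34364511) at 86.6 to 90.6 in GFP, 88.0 to 89.5 in Ezh2, with 84.9 and 79.2 in Ezh2-Y726D. Both Ezh2-Y726D values were below all others there, with a limma adjusted p of 0.195 against GFP and 0.182 against Ezh2.

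**Figure D2:**
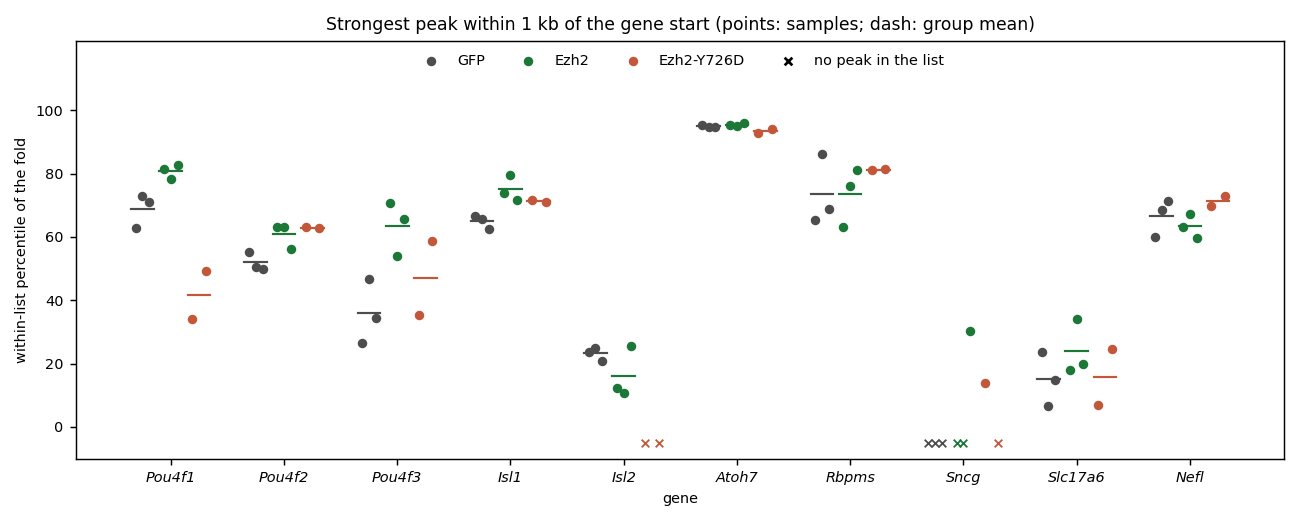
Percentile by fold, among all peaks of the same list, of the peak at the start of each member (vertical axis, 0 to 100; at a gene end for Pou4f3, Rbpms and Nefl), with 1 point per sample and colours for GFP, Ezh2 and Ezh2-Y726D. Pou4f1 separates the 3 groups, with Ezh2 at 78.3 to 82.7, GFP at 63.0 to 72.8 and Ezh2-Y726D at 34.2 and 49.3, while Atoh7 lies between 93.0 and 96.0 in every list.

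Taking all windows as a sum, the GFP lists held 32, 37 and 39 peaks, the Ezh2 lists 39, 43 and 46, and the Ezh2-Y726D lists 31 and 30. The Ezh2-Y726D lists lay below every other list, and Ezh2 and GFP touched at 39. Means were 36.0 ± 3.61 (SD, n = 3), 42.7 ± 3.51 (n = 3) and 30.5 ± 0.707 (n = 2). Since lists differ in length, the number per 1000 peaks of the list is the fairer measure, at 0.299 ± 0.0262, 0.328 ± 0.0167 and 0.241 ± 0.0110. No p is given for a sum over chosen genes. Over the 19 regions present everywhere, the median percentile was 63.0, 65.9 and 65.6 in GFP, 63.2, 66.2 and 71.6 in Ezh2 and 68.1 in both Ezh2-Y726D lists. For all regions with a peak in every list, that median was 68.0, 66.7 and 71.8 in GFP and 68.5, 69.4 and 71.1 in Ezh2. It was 70.0 and 70.9 in Ezh2-Y726D. The members lay below this level in every list but Ezh2 replicate 3.

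By gene, the numbers in Ezh2-Y726D lay below both other groups at Isl2 and Isl1. At Isl2 there were 4, 5 and 5 peaks in GFP, 4, 4 and 5 in Ezh2, with 2 and 1 in Ezh2-Y726D. Isl1 had 3, 3 and 4 peaks in GFP, 4, 6 and 4 in Ezh2, with 2 and 2 in Ezh2-Y726D. Pou4f1 had 2, 3 and 2 in GFP, 3, 6 and 5 in Ezh2, with 2 and 2 in Ezh2-Y726D, so GFP and Ezh2 meet at 3. Rbpms, with the longest window (187.3 kb), had 7, 10 and 13, then 12, 12 and 14, then 12 and 11. The remaining genes moved by at most a few peaks: Pou4f3 had 1 to 3, Atoh7 3 to 4, Sncg 2 to 3, Slc17a6 2 to 6 and Nefl 1 to 3. The groups overlapped at Pou4f3, Atoh7, Sncg, Nefl, Slc17a6 and Rbpms.

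**Figure D3:**
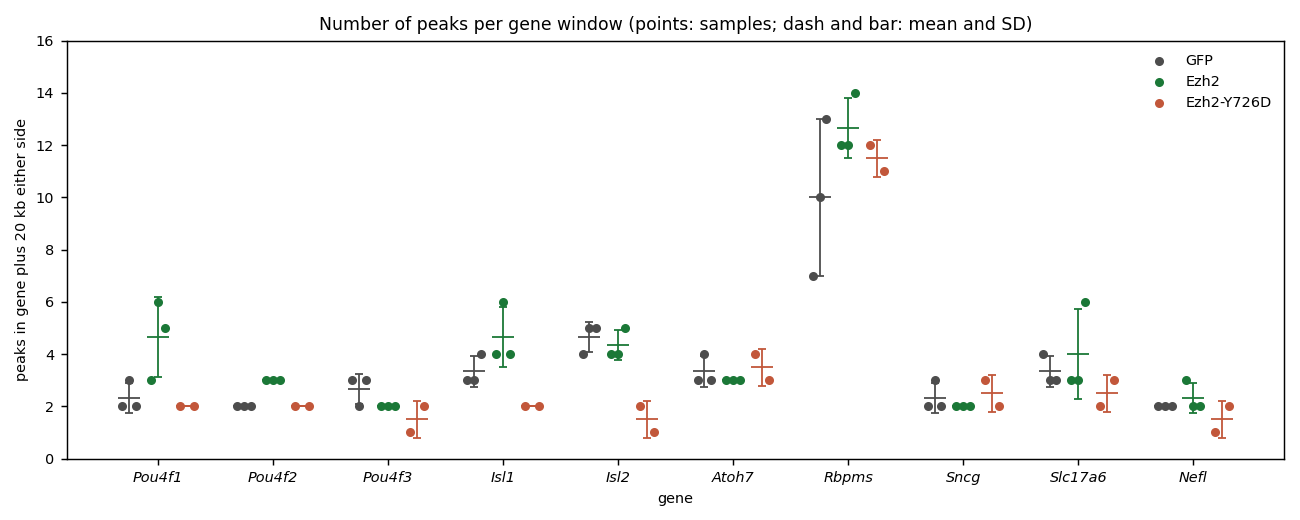
Number of peaks in the window of each RGC identity gene (gene and 20 kb either side, vertical axis), with 1 point per sample for GFP, Ezh2 and Ezh2-Y726D. At Isl2 the Ezh2-Y726D samples have 2 and 1 peaks and the other samples 4 or 5.

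These numbers were tested with limma on log2(number + 1), centred per list, across all protein-coding genes. In Ezh2 against GFP none of the 10 genes was called, with 1.17% of all genes called higher and 0.973% called lower. At an unadjusted p under 0.05 there were 2, and the lowest adjusted p was 0.0508, at Pou4f2. In Ezh2-Y726D against GFP, Isl2 was called lower, by -1.18 ± 0.180 on the log2 scale (SE, adjusted p = 0.0102 by limma with Benjamini-Hochberg adjustment), and no gene was called higher (backgrounds 5.28% and 2.63%). In Ezh2 against Ezh2-Y726D, 3 genes were called higher (background 8.42%) and none lower (4.95%). These were Isl2 at 1.01 ± 0.180 (adjusted p = 0.0111), Isl1 at 0.79 ± 0.161 (adjusted p = 0.0187) and Pou4f2 at 0.31 ± 0.0749 (adjusted p = 0.0342). The 3 calls of 10 stand against a background of 8.42% and rest on small whole numbers. The Isl2 call in Ezh2 against Ezh2-Y726D was lost with windows of 50 kb (adjusted p = 0.0630). Both Isl2 calls were lost when the replicate number was added to the limma fit as a block (adjusted p = 0.0568 for Ezh2-Y726D against GFP). Neither was lost in a fit without 1 GFP or Ezh2 replicate. At Isl1 the adjusted p was 0.0811 and 0.0875 without Ezh2-Y726D replicate 1 or 2 and 0.245 with windows of 5 kb. Pou4f2 had 2 peaks in every GFP and Ezh2-Y726D list and 3 in every Ezh2 list, but the third peak was not the same one: it lay inside the gene in Ezh2 replicates 1 and 2 (chr8, from 78435151) and upstream of the start in replicate 3 (from 78437545). The counts of Pou4f2 did not vary within any group, so its SE and adjusted p-values do not measure a spread of counts between samples. Over 16 alternatives its adjusted p ran from 5.84e-09 to 0.877. It lost the call with −log10 q of at least 5 (0.877) and with lists of equal length (0.768). It also lost it without GFP replicate 1 (0.0518), without Ezh2 replicate 1, 2 or 3 (0.0966, 0.0942 and 0.0639) and without Ezh2-Y726D replicate 1 or 2 (0.130 and 0.160).

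The first comparison of regions, Ezh2 against GFP, asks what the active enzyme does to chromatin at these genes. Little changed in presence. A single region was gained, meaning that it had a peak in all 3 Ezh2 lists and in no GFP list (1 of 59, background 2.72% of all regions), and 2 were lost (background 1.68%). The gained region lay inside Rbpms (chr8:33797327-33797616), with low percentiles of 2.9, 26.9 and 32.4 in Ezh2 and no peak in the Ezh2-Y726D lists either. It was not kept when only peaks with −log10 q of at least 5 were used or when lists were cut to equal length. The lost regions were one inside Rbpms (chr8:33876420-33876951), with folds of 4.00, 3.80 and 3.80 in GFP, and one 20 kb below the lower end of Pou4f3 (chr18:42374760-42375471), with 5.89, 4.61 and 3.38. In Ezh2-Y726D the Rbpms region was present in both lists, at percentiles of 43.0 and 42.8, so among the 3 groups it was absent only from Ezh2. Neither loss was kept at the stricter −log10 q.

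Among the 19 regions with a peak in all 8 lists, limma on within-list ranks (normal scores, where 1 is the SD of the ranks of a list) called none higher and none lower in Ezh2 against GFP, with backgrounds of 1.59% and 2.84%. At an unadjusted p under 0.05 there were 3 higher and 1 lower, where 20.0% of all regions passed, and the lowest adjusted p was 0.0962. Of the 19, 10 differences were positive and 9 negative, and their median was 0.02 beside 0.01 over all 69493 regions tested. Groups did not overlap in 4 regions higher in Ezh2 and 1 lower (backgrounds 12.8% and 11.5%). The 4 higher regions were at starts or ends of Pou4f1, Pou4f2, Pou4f3 and Isl1. At Isl2, a LIM factor gene like Isl1, the region 5.0 kb upstream went the other way. It was lower in Ezh2 by -0.70 ± 0.285 (adjusted p = 0.205 by limma), with overlapping groups. At the Pou4f3 region (chr18:42394931-42395834), which spans most of this short gene, the percentiles were 26.5, 46.7 and 34.4 in GFP, 70.7, 54.1 and 65.5 in Ezh2, with 35.3 and 58.7 in Ezh2-Y726D. Its difference was 0.80 ± 0.242 (adjusted p = 0.0962 by limma), and no alternative brought it past the threshold. At the Isl1 start (chr13:116309246-116310259) the values were 66.5, 65.7 and 62.7 in GFP, 73.9, 79.6 and 71.6 in Ezh2, with 71.7 and 70.9 in Ezh2-Y726D, with a difference of 0.34 ± 0.170 (adjusted p = 0.301). The Pou4f2 start (chr8:78435912-78436943) had 55.4, 50.4 and 50.0 in GFP, 63.2, 63.0 and 56.3 in Ezh2, with 63.2 and 62.8 in Ezh2-Y726D (0.25 ± 0.170, adjusted p = 0.477). At Isl1 and Pou4f2, both Ezh2-Y726D samples also lay above all GFP samples. None of these 4 regions passed the test.

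The second comparison, Ezh2-Y726D against GFP, asks what the mutant does, and it uses the same GFP samples. Here 6 of 59 regions were lost (10.2%, background 4.72%) and 2 were gained (3.39%, background 4.77%). Of the 6 lost regions, 3 lay in Isl2. The region at its start (chr9:55540819-55541342) had percentiles of 23.7, 24.9 and 20.9 in GFP, 12.2, 10.8 and 25.6 in Ezh2 and no peak in Ezh2-Y726D, with folds of 3.16 to 3.91 where present. Its summits lay between -23 and 15 bp from the annotated start in all 6 lists, inside the Isl2 promoter printed above. The other Isl2 regions lay 1.1 kb (chr9:55541777-55542777) and 5.2 kb (chr9:55546179-55546572) into the gene, and both were mostly low where present. Their percentiles were 3.3 to 7.0 at 1.1 kb, and 2.7 to 5.5 at 5.2 kb apart from 34.5 in Ezh2 replicate 2. The peak 5.0 kb upstream of Isl2 (chr9:55535793-55536430) was present in all 8 lists, at 43.0 and 74.6 in Ezh2-Y726D and 32.0 to 71.1 elsewhere. Loss at the start was kept with the stricter −log10 q, with lists of equal length and when a peak had to cover a share of 0.5 of the region. Loss of the region at 1.1 kb was kept under the first 2 of these and that at 5.2 kb only under the last. The background pileup was 2.39 and 3.12 reads in the 2 lists that lacked the Isl2 start peak and 2.69 to 3.74 reads in the 6 that had it, and the part of depth in this result was not tested.

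The other losses were the Pou4f3 region 20 kb below the gene that was also missing from Ezh2, a region in Rbpms (chr8:33786813-33787576) with percentiles of 11.2 to 25.9 in GFP and 28.8 to 37.6 in Ezh2, and one 5.4 kb into Slc17a6 (chr7:51626772-51627699) with 15.0 to 43.9 and 12.2 to 37.7. The loss in Slc17a6 was kept under none of the 3 changes of peak definition. The 2 gained regions lay below Rbpms in the neighbouring gene Gtf2e2, which encodes a subunit of a general transcription factor. The one at chr8:33773128-33773520 had folds of 4.71 and 4.82 and no peak in any other list, and it was kept under all 3 changes.

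In rank, 1 of 19 regions was called lower and none higher (backgrounds 4.65% and 3.55%), while at an unadjusted p under 0.05 there were 4, all lower, where 24.4% of all regions passed in either direction. The median difference was 0.05 beside -0.01 for all regions. Non-overlapping groups numbered 6 lower and 2 higher (backgrounds 20.4% and 21.1%). The region called was the start of Pou4f1, the CpG-rich promoter printed above. At chr14:104467323-104468514 the folds were 5.54, 6.78 and 6.28 in GFP, 7.77, 7.11 and 7.33 in Ezh2, with 4.32 and 4.97 in Ezh2-Y726D. The percentiles were 63.0, 72.8 and 71.0, then 81.6, 78.3 and 82.7, then 34.2 and 49.3. The 3 groups did not overlap, with Ezh2 highest and Ezh2-Y726D lowest, and every summit lay between -95 and -24 bp from the start, that is, upstream of it. Against GFP, Ezh2-Y726D was lower by -0.85 ± 0.193 (SE, adjusted p = 0.0267 by limma). This call was lost when the replicate number was added to the fit as a block. Ezh2 was higher than GFP by 0.44 ± 0.173, which was not called (adjusted p = 0.187). The difference between Ezh2-Y726D and GFP stayed negative in 16 alternatives, between -1.14 and -0.53, and its adjusted p ran from 0.0106 to 0.209. Of the fits without 1 replicate, the call was lost without GFP replicate 2 (0.0698), GFP replicate 3 (0.0532), Ezh2-Y726D replicate 1 (0.209) or Ezh2-Y726D replicate 2 (0.0654).

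Close behind was a region inside Rbpms (chr8:33833122-33834129), the most open region of that gene. It stood at 92.3, 90.8 and 93.0 in GFP, 83.0, 92.8 and 80.6 in Ezh2, with 72.7 and 80.9 in Ezh2-Y726D, and every Ezh2-Y726D value was below every GFP value (-0.85 ± 0.235, adjusted p = 0.0541 by limma). A region 15.8 kb downstream of the Isl1 start (chr13:116293413-116294281) had 46.3, 45.3 and 56.8 in GFP and 26.8 and 30.0 in Ezh2-Y726D (-0.59 ± 0.174, adjusted p = 0.0640). Neither passed the threshold.

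The third comparison, Ezh2 against Ezh2-Y726D, sets the active enzyme against the inactive one. A peak was gained in 9 of 59 regions (15.3%, background 8.96%) and lost in 2 (3.39%, background 6.14%). Among the 9 were the 3 Isl2 regions, the Rbpms regions at 33786813 and 33797327 and the Slc17a6 region described above, all present in every Ezh2 list and absent from both Ezh2-Y726D lists. The others lay 9.9 kb upstream of Isl1, 12.2 kb downstream of the Isl1 start and inside Rbpms. The upstream Isl1 region (chr13:116319409-116319767) had percentiles of 57.4, 52.9 and 44.2 in Ezh2, 8.6 and 15.0 in GFP replicates 1 and 2 and no peak in GFP replicate 3 or Ezh2-Y726D, with folds of 5.37, 4.89 and 4.26 in Ezh2. The Rbpms region (chr8:33897753-33898279) had 76.0, 37.2 and 74.4 in Ezh2, 58.7 in GFP replicate 3 and no peak elsewhere. Both were kept under all 3 changes of peak definition. The downstream Isl1 region (chr13:116297404-116297673) was weak, at 2.0 to 15.9. The 2 lost regions were the Rbpms region at 33876420, absent only from Ezh2, and the Gtf2e2 region at 33773128, present only in Ezh2-Y726D.

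Upstream of Pou4f1, further peaks appeared without meeting the rule for gain. At 5.3 kb upstream of the start there was a peak in Ezh2 replicates 1 and 2 (percentiles 13.8 and 27.9), at 6.1 kb in Ezh2 replicates 2 and 3 (14.0 and 56.9) and GFP replicate 2 (6.8), and at 6.6 kb in Ezh2 replicates 2 and 3 (33.6 and 25.6). No Ezh2-Y726D list had a peak in these 3 regions, which make up most of the higher number of peaks at Pou4f1 in Ezh2.

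In rank, 2 of 19 regions were higher in Ezh2 than in Ezh2-Y726D and none lower (backgrounds 7.0% and 6.96%), and the same 2 passed at an unadjusted p under 0.05, as did 29.4% of all regions. The median difference was 0.19 beside 0.02 over all regions, with 12 positive and 7 negative, and groups did not overlap in 6 higher and 2 lower (backgrounds 24.8% and 22.6%). The Pou4f1 start differed most among the members, by 1.29 ± 0.193 (adjusted p = 0.00305 by limma), which is a drop in percentile from 80.9 ± 2.31 (SD, n = 3) to 41.8 ± 10.7 (n = 2). This call was kept in all 16 alternatives, with adjusted p from 0.00159 to 0.0384. The other was the region 15.8 kb downstream of the Isl1 start, with 51.1, 48.7 and 60.1 in Ezh2, 26.8 and 30.0 in Ezh2-Y726D and GFP at the level of Ezh2. Its difference was 0.68 ± 0.174 (adjusted p = 0.0296 by limma), and its adjusted p ran from 0.00175 to 0.177 over 15 alternatives. Of the fits without 1 replicate, that call was lost without Ezh2 replicate 1 (0.0563), Ezh2 replicate 3 (0.0767), Ezh2-Y726D replicate 1 (0.177) or Ezh2-Y726D replicate 2 (0.134). The Isl1 start itself was not called in rank by fold (0.18 ± 0.190, adjusted p = 0.588), and was called higher in Ezh2 only when regions were ranked by −log10 p (0.55, adjusted p = 0.0221).

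**Figure D4:**
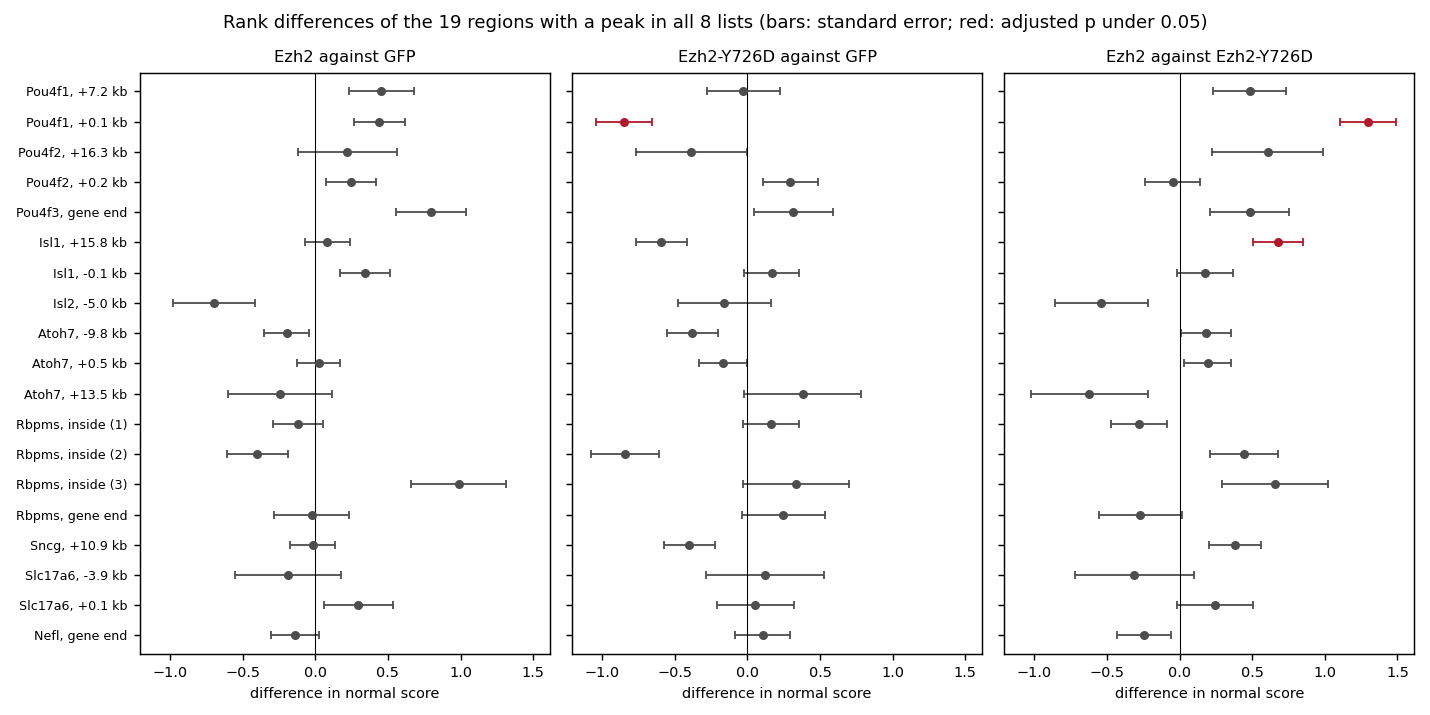
Difference in within-list rank (normal scores, with SE) for each of the 19 regions with a peak in all 8 lists, for the 3 comparisons, in red where limma called the region at an adjusted p under 0.05. The Pou4f1 start is at 1.29 in Ezh2 against Ezh2-Y726D and -0.85 in Ezh2-Y726D against GFP, and the Atoh7 start is close to 0 in each.

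Further lists of RGC genes were set beside these. The first holds 30 other transcription factor genes of RGC fate and subtype, of which 28 to 29 had a start peak in each list, and 129 of their 300 regions were in all 8 lists. In Ezh2 against GFP, 1 was called higher and 5 lower, in Ezh2-Y726D against GFP 2 and 3, and in Ezh2 against Ezh2-Y726D 5 and 11. The lower calls in Ezh2 against Ezh2-Y726D included a region at Neurog2, a proneural factor gene (-1.21 ± 0.207, adjusted p = 0.00542 by limma), and 4 regions at Bcl11b, a zinc finger factor gene. Other Bcl11b regions were gained in the same comparison, among them chr12:107960949-107961437. The Bcl11b window held 15, 17 and 17 peaks in Ezh2 and 11 and 10 in Ezh2-Y726D. Among the higher rank calls were 3 regions at Pax6, which encodes the master factor of eye development, at 0.83, 0.93 and 1.02. The second list holds 20 other RGC markers, of which 18 to 19 had a start peak, and 89 of their 226 regions were in all 8 lists. Of the 89, 0 were called higher and 2 lower in Ezh2 against GFP, and 1 and 6 in Ezh2-Y726D against GFP. In Ezh2 against Ezh2-Y726D there were 10 and 2. Of all regions tested, 1.59% were called higher and 2.84% lower in Ezh2 against GFP, and 3.55% and 4.65% in Ezh2-Y726D against GFP. In Ezh2 against Ezh2-Y726D these shares were 7.0% and 6.96%. They are the backgrounds for both lists. The 10 higher regions included Nefh, the heavy neurofilament gene (1.03 ± 0.258, adjusted p = 0.0271), and 2 regions at Elavl4, a neuronal RNA-binding protein gene (1.08 and 1.54), whereas the 2 lower ones were both at its relative Elavl3 (-1.39 and -0.87). In Ezh2 against Ezh2-Y726D, called regions of each list thus lay in both directions, but the lists leaned opposite ways. The first had more lower than higher calls (11 and 5) and the second more higher than lower (10 and 2). Over all regions the shares called higher and lower in that comparison were nearly equal. These counts were not tested against the backgrounds.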

How the data were processed

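ATAC-seq peaks of sorted RGCs were compared between 3 GFP, 3 Ezh2 and 2 Ezh2-Y726D samples, grouped by their titles. Per the submitters' notes, the authors used cutadapt, Bowtie2, SAMtools, Picard, MACS2, deepTools and GRCm38; versions are not given in the sources used here. The authors called peaks per sample. The deposited fold is the ratio of pileup to local background at the summit. The deposited −log10 p and −log10 q are those of the caller, and the deposited score was not used. The lowest −log10 q was 1.31 to 1.38. The lists hold no read counts, so depth is unknown and no interval from counting is given. The relative depth index is the inverse of the step between the 12 most common folds of a list, minus 1 read.

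Peaks of any of the 8 lists that overlapped by at least 1 bp formed 1 region. It was gained when every sample of the first group and none of the other had a peak, and lost in the reverse case. Ranks by fold were turned into normal scores over the 69493 regions in all 8 lists and compared with limma 3.58.1 in R 4.3.3 (1 fit, 3 group means). Numbers of peaks per gene and 20 kb either side were compared the same way on log2(number + 1), centred per list. Calls had a Benjamini-Hochberg adjusted p under 0.05 over all features. The functions that merge and count peaks were tested on small lists with known answers, and the limma fits on simulated data. Positions are 1-based in GRCm38, and genes and promoters are from RefSeq (GRCm38.p6). All 10 members are named, with the regions at their starts, the most open region of each, called regions, and gained or lost regions up to 5 per comparison and direction. Gained or lost regions beyond these 5, the upstream Pou4f1 and Pou4f2 peaks, the non-overlapping regions and the near-threshold regions were chosen after their values were seen. The members and lists were chosen with earlier results of these data known.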

Additional observations from a re-analysis of the deposited data

How the results depend on the processing

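Alternatives changed the size of most counts. No called difference changed sign, whereas some that were not called did. Rank calls (0 and 1 for Ezh2 and Ezh2-Y726D against GFP, 2 between Ezh2 and Ezh2-Y726D) became 2 and 1 in the last pair with −log10 q of at least 5, 3 in Ezh2-Y726D against GFP when ranked by −log10 p or by log2 fold, 1 in Ezh2 against GFP with regions in at least 5 lists, and 4 (3 higher, 1 lower) in Ezh2 against Ezh2-Y726D with windows of 50 kb. Leaving out 1 replicate gave 0 to 1, 0 to 2 and 1 to 2. Gained regions in Ezh2 against GFP (1) were 0 with lists of equal length, 2 with 50 kb and 1 to 3 without 1 replicate. Lost regions there (2) were 0 with the stricter −log10 q and 1 with equal lists or windows of 5 kb. For Ezh2-Y726D against GFP, gained regions (2) were 1 with equal lists, 0 with 5 kb, 4 with 50 kb and 2 to 5 without 1 replicate. Lost regions (6) were 2 with the stricter −log10 q, 3 with equal lists, 3 when a peak covered 0.5 of the region and 10 with 50 kb. In Ezh2 against Ezh2-Y726D, gained regions (9) were 5 with the stricter −log10 q and 15 with 50 kb, and lost regions (2) were 4 with the cover rule, 1 with 5 kb, 4 with 50 kb and 2 to 4 without 1 replicate. With the stricter −log10 q, the difference in peaks was -1.33 in Ezh2-Y726D against GFP (-5.5 with all peaks) and 8.67 in Ezh2 against Ezh2-Y726D (12.2 with all peaks). Genes called in number (0, 1 and 3) were 1 in Ezh2 against GFP with 5 kb, without centring or with 0.5 added, and 2 in Ezh2-Y726D against GFP with 50 kb; leaving out 1 replicate gave 0 to 1, 1 to 2 and 1 to 3. The median rank (66.5) was 70.2 with 50 kb. Causes were not tested, beyond the fewer peaks, shorter lists or other windows that these settings use.

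Same-numbered GFP and Ezh2 samples deviated together only weakly (correlations 0.00545, 0.0326 and 0.0478). Differently numbered GFP and Ezh2 pairs lay between -0.0482 and 0.0160. The labels do not say whether the numbers pair samples, and correlations this small cannot decide it. With the replicate block, rank calls were 0 in Ezh2-Y726D against GFP and 1 in Ezh2 against Ezh2-Y726D, and number calls 0 and 1. The adjusted p was 0.0522 for the Pou4f1 start against GFP, 0.0694 for the Isl1 region at 15.8 kb, 0.0626 for the number at Isl1, and 0.0568 and 0.0584 for that at Isl2 against GFP and Ezh2. A block by the numbers in the peak names, where Ezh2-Y726D replicates 1 and 2 carry 2 and 3, was chosen after seeing the data and gave rank calls of 0 and 1 and number calls of 1 and 2, with 0.0624 for the Pou4f1 start, 0.0552 for the Isl1 region, and 0.0504 and 0.0669 for the numbers at Isl1 and Pou4f2.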
